A study of Mus musculus with 2 samples.

Results

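The CpGs nearest the centromeres of the mouse autosomes were examined in mouse embryonic fibroblasts (MEFs) with and without a normal maintenance DNA methyltransferase. They were chosen by position alone, as every measured CpG on chromosomes 1 to 19 that starts below 5 Mb in the NCBIM37 (mm9) build, where sequence begins just after 3 Mb on each autosome. This gave 28987 of the 1790826 CpGs in the table, or 1.62%, and 372 (chromosome 14) to 3835 (chromosome 19) per chromosome. The methylation of single CpGs had been measured by reduced representation bisulfite sequencing (RRBS), in which restriction fragments are treated with bisulfite so that unmethylated cytosine is read as thymine. There was 1 library of Dnmt1+/+ MEFs and 1 of Dnmt1-/- MEFs, so that differences are between libraries and carry counting error only, and what differs between the cell lines besides Dnmt1 cannot be told apart from genotype. Both lines also lack trp53, were untreated, and come from embryos whose age and number are not given in the labels. According to the study's text, the cells labelled Dnmt1-/- are homozygous for a hypomorphic Dnmt1 allele. The library labels could not be checked against Dnmt1 expression here, since only methylation was analysed.

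Mouse autosomes have their centromere at 1 end. The centromere itself lies in minor satellite repeats, next to long arrays of major satellite, a short AT-rich unit repeated in tandem that forms the pericentric heterochromatin and is densely methylated in somatic cells. Most of these arrays are missing from the assembled genome, and the first assembled megabases are ordinary sequence that borders them. Dnmt1 copies CpG methylation onto the newly made strand after replication, and major satellite is a classic readout of its loss.

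A few stretches show the range of outcomes in this sequence. In each, capitals mark CpGs that were measured in both libraries, and the letters are the plus strand of NCBIM37. The unit from the start of chromosome 9 (chr9:3000331-3000564) reads as major satellite, and its 7 CpGs outside restriction sites averaged 73.3% in Dnmt1+/+ and 10.6% in Dnmt1-/-. A stretch with no methylated call left in Dnmt1-/- lies at the start of Gm7353, a predicted gene (chr7:3111791-3111932), and averaged 89.5% and 0%. The stretch that kept most methylation lies in an intron of Atad2b, which encodes an AAA-domain protein with a bromodomain (chr12:4932166-4932213), and averaged 89.7% and 78.7%. A coding stretch of Arhgef18 (chr8:3452007-3452110) was added after its values were seen, and its 11 CpGs outside restriction sites averaged 95.1% and 75.7%.
Satellite unit: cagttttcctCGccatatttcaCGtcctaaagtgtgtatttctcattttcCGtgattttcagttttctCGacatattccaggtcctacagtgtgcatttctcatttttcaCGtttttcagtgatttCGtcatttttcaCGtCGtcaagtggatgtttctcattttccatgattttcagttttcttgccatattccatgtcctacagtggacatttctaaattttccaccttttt
Gm7353: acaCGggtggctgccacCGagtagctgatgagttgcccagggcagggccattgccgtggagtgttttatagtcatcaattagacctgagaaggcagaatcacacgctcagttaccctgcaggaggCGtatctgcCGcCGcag
Atad2b: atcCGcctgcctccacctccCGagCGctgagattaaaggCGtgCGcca
Arhgef18: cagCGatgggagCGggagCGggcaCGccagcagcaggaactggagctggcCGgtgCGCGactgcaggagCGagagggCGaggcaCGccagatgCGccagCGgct
Each of these runs occurs 1 time in the assembly in exactly this form. Copies that differ by some bases were not counted, and whether reads of such copies were placed on these runs was not tested.

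CpGs inside CCGG or TCGA, the sites of the enzymes MspI and TaqI, read far higher on average than CpGs outside them in both libraries. Next to the centromeres 12250 CpGs (42.3%) lay in these sites, and they averaged 81.4% in Dnmt1+/+ and 56.3% in Dnmt1-/-. In the satellite unit above, for example, the CpG in TCGA was at 98.4% in Dnmt1+/+ and 91.5% in Dnmt1-/-, at depths of 2927 and 3278 calls, while the measured CpG before it was at 91.5% and 10.3%. Levels are therefore given for the 16737 CpGs outside CCGG and TCGA, called other CpGs, and calls for all 28987 unless stated.

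Next to the centromeres, other CpGs had a mean methylation of 43.5% in Dnmt1+/+ and 13.4% in Dnmt1-/-, and those of the rest of the autosomes 45.0% and 15.2%. The Dnmt1-/- mean was thus 30.9% of the Dnmt1+/+ mean next to the centromeres and 33.8% elsewhere. When the calls were pooled, Dnmt1+/+ stood at 38.6% and Dnmt1-/- at 11.7%, with 95% Wilson intervals of 38.5 to 38.7% and 11.7 to 11.8%. Pooled calls on the rest of the autosomes stood at 31.7% and 11.5%, so that the direction of the difference depended on whether CpGs or calls were counted. The median depth over all these CpGs was 32 and 33 calls, and 33 in both libraries elsewhere. Medians of single chromosomes next to the centromeres were 20 to 41 calls (Dnmt1+/+) or 22 to 51 (Dnmt1-/-), beside 27 to 42 or 25 to 40 on the rest. All measured CpGs, restriction sites included, averaged 59.5% and 31.6% against 61.8% and 33.8%. The last 2 Mb of the same chromosomes, the other assembled ends, were at 36.4% in Dnmt1+/+ and 11.7% in Dnmt1-/-, so that 32.1% was kept.

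Each CpG was tested between the libraries (Fisher's exact test, two-sided, Benjamini-Hochberg adjusted over the whole table). This called 12449 CpGs next to the centromeres lower in the Dnmt1-/- library, 42.9%, against 43.7% of all CpGs of the table. In the other direction 95 were higher, 0.328%, against 0.462% of the table. Among other CpGs 7286 were lower, 43.5%, against a background of 44.2%, and 66 were higher, 0.394%, against 0.635%. The shares of lower CpGs were therefore close to the background.

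Levels differed by where the CpGs lay. Promoter CpGs, within 1 kb of an annotated transcription start, averaged 15.2% in Dnmt1+/+ and 5.57% in Dnmt1-/-, and made up 53.4% of the other CpGs next to the centromeres against 47.8% elsewhere. They include CpGs of the satellite array, which was highly methylated in Dnmt1+/+, and the promoter mean without it was not computed. Exon CpGs averaged 75.7% and 31.8%, intron CpGs 77.6% and 26.02%, and intergenic CpGs 74.8% and 16.9%. Elsewhere on the autosomes the same classes stood at 12.1% and 4.92% (promoter), 73.3% and 31.4% (exon), 78.2% and 27.9% (intron), and 73.4% and 19.4% (intergenic). Exon and intergenic means were thus alike in Dnmt1+/+, although pooled calls gave 74.5% and 62.9%, beside 66.2% and 56.7% on the rest of the autosomes. The deepest exon CpG, at 4766 Dnmt1+/+ calls, lay in the satellite array at the start of chromosome 9, while no intergenic CpG did. Pooled exon levels without the array were not computed. Exons kept a larger part in Dnmt1-/-, 41.96% against 22.6%, beside 42.8% and 26.4% on the rest of the autosomes.

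Dnmt1+/+ MEFs had 6061 of these other CpGs at a level of at least 80%. In Dnmt1-/-, 47.8% of them were at 20% or less and 5.73% (347 CpGs) were still at 80% or more. On the rest of the autosomes these shares were 42.6% and 6.36%. The median Dnmt1-/- level of these CpGs was 22.2% (quartiles 7.14 and 48.2%) next to the centromeres and 26.7% elsewhere. CpGs that were low in Dnmt1+/+ stayed low, with 8330 of them averaging 2.95% and 1.57%.

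**Figure D1:**
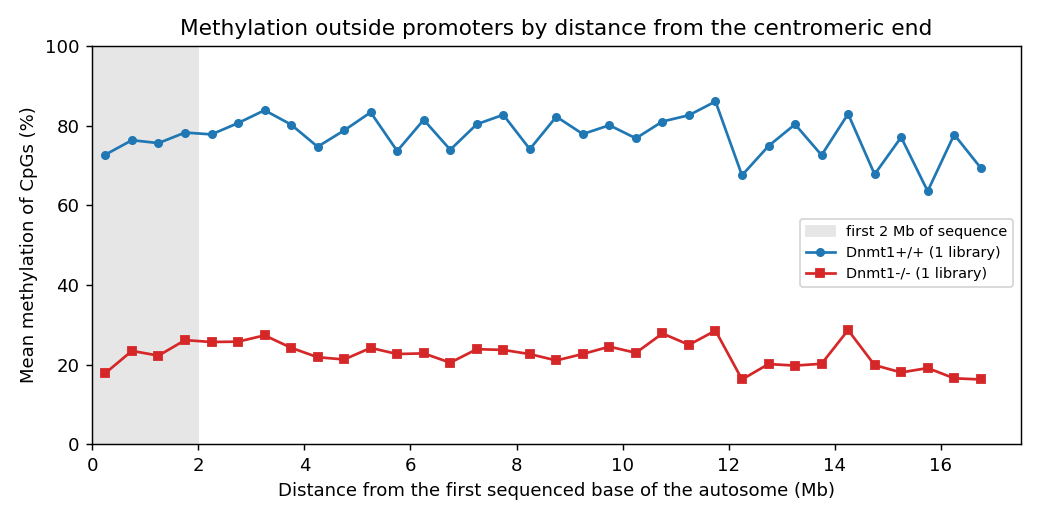
Mean methylation (y axis, percent) of other CpGs outside promoters and outside the satellite array, in steps of 0.5 Mb from the first sequenced base of the autosomes (x axis, Mb), pooled over the 19 autosomes; circles are the Dnmt1+/+ library, squares the Dnmt1-/- library, and the grey band is the first 2 Mb. The Dnmt1-/- line starts at 17.9% and reaches 26.1% in the fourth step, and later steps lie between 16.3 and 28.7%.

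Outside promoters and the satellite array, the Dnmt1-/- mean was 17.9% in the first 0.5 Mb of sequence (2142 CpGs), then 23.4%, 22.2% and 26.1% in the next steps of the same length. Dnmt1+/+ stood at 72.7%, 76.3%, 75.6% and 78.3% in these steps, so that the share kept was 24.6%, 30.7%, 29.4% and 33.4%. The first 0.5 Mb had a lower Dnmt1-/- mean than the next 1.5 Mb on 13 of the 19 autosomes. Further along the chromosomes, 30 later steps ranged from 16.3 to 28.7% in Dnmt1-/-, and 3 of them were below the first step. The low first step was therefore inside the range of the steps that followed.

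Levels at the centromeric ends varied from chromosome to chromosome. Over other CpGs outside promoters, the Dnmt1-/- mean ran from 11.3% on chromosome 3 (207 CpGs) to 29.5% on chromosomes 7 and 19 (677 and 897 CpGs). Windows of the same 2 Mb length further along the autosomes also varied, and 90% of these 1197 windows lay between 11.8 and 35.3%. Of the 19 first windows, that of chromosome 3 alone was outside that range. The mean at the centromeric end was below that of the rest of the same chromosome on 14 of 19 autosomes and above it on chromosomes 5, 7, 12, 15 and 19. In Dnmt1+/+ it was below on 8 and above on 11. The median difference was 4.12 points in Dnmt1+/+, with the centromeric end higher, and -4.22 points in Dnmt1-/-, with the centromeric end lower. Chromosomes of 1 library are not replicates, so these counts carry no test.

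**Figure D2:**
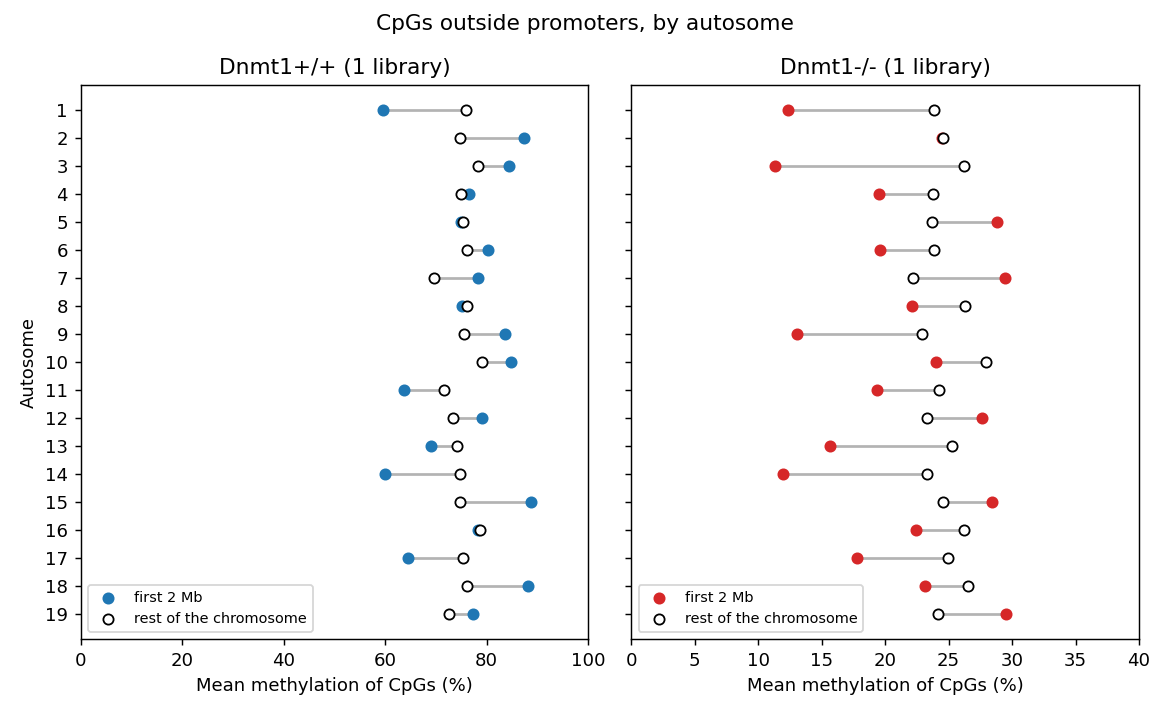
Mean methylation (x axis, percent) of other CpGs outside promoters for each autosome (y axis), in the Dnmt1+/+ library (left) and the Dnmt1-/- library (right, with a shorter axis); filled points are the first 2 Mb of sequence and open points the rest of the chromosome, which rest on many more CpGs. In Dnmt1-/- the filled points lie between 11.3 and 29.5% and the open points between 22.2 and 28.0%.

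Chromosome 3 stood out at the low end. Its first 2 Mb averaged 84.4% in Dnmt1+/+, above the 78.2% of the rest of the chromosome, and 11.3% in Dnmt1-/-, below the 26.2% of the rest. It kept 13.4% of the Dnmt1+/+ level, rank 3 from the lowest of the 79 consecutive windows of 2 Mb on that chromosome. Chromosome 9 was similar, at 83.7% and 13.1%, keeping 15.6%, rank 3 of 61 windows. Chromosome 13 kept 22.7% (rank 7 of 59). Chromosomes 1 and 14 also had low Dnmt1-/- means, 12.3% and 11.9%, but there Dnmt1+/+ was low too, 59.5% and 59.99% against 75.9% and 74.8% on the rest.

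At the high end, chromosome 5 kept 38.4%, chromosome 19 kept 38.1% and chromosome 7 kept 37.6%, ranks 67 of 75, 24 of 30 and 66 of 73 from the lowest. Chromosome 3 has 8 annotated genes whose first base lies in this interval and 7.66% of its bases lie in genes, whereas chromosome 7 has 103 genes and 54.6%, and chromosome 19 has 75 genes and 59.7%. GC content ran from 38.3% on chromosome 3 to 46.9% on chromosome 19. Across the 19 autosomes the share kept had a Pearson's r of 0.43 with the share of bases in genes and of 0.68 with GC content, given as a description only since all points come from the same pair of libraries. Chromosome 14 had 69.2% of bases in genes and kept 19.9%, chromosome 9 had 51.1% and kept 15.6%, and chromosome 11 had 70.1% and kept 30.4%. Chromosome 5, which kept most, had 44.0% of bases in genes, and chromosome 15 had 44.8% and kept 32.05%. Whether gene content sets the level was not tested. Over all 19 autosomes the first window was below the median window of its chromosome on 15 for the share kept and on 13 for the Dnmt1-/- level. With the windows of each chromosome split by that level into equal low, middle and high groups, the first window was in the low group on 8 autosomes, the middle on 6 and the high on 5.

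Pericentric satellite was measured in 1 array next to the centromeres. At the start of chromosome 9, from 3000001 to 3038000, 37 of 38 consecutive 1 kb tiles matched themselves over 52.7 to 92.1% of bases when shifted by 1 satellite unit. These tiles held 238 measured CpGs, of which 232 were other CpGs and 6 lay in TCGA. Another 6 tiles of this kind below 5 Mb held no measured CpG. Outside TCGA the array averaged 88.0% in Dnmt1+/+ (median 94.1%, quartiles 86.9 and 97.0%) and 21.2% in Dnmt1-/- (median 9.09%, quartiles 5% and 22.2%). Pooled calls gave 86.3% (86.1 to 86.6%) and 15.3% (15.04 to 15.6%). Of the 238 CpGs, 211 (88.7%) were called lower in Dnmt1-/-, against 43.7% of the table and 89.8% of the other CpGs next to the centromeres that were at 80% or more in Dnmt1+/+. None of the array, 0 of 238, was called higher, with 0 higher at an unadjusted p under 0.05.

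The array thus kept 24.1% of its Dnmt1+/+ level, beside 14.5% for the 286 other CpGs outside promoters in the remaining first 2 Mb of chromosome 9, which averaged 83.2% and 12.05%. Most of this gap went with CpGs that read TCGC: without them the array averaged 86.4% and 13.2% and kept 15.3%, and the sequence beside it averaged 82.97% and 11.8% and kept 14.2%. With calls pooled, Dnmt1-/- was higher in the array than beside it with TCGC included (15.3% and 11.8%) and lower without it (7.18% and 11.6%). The direction of the difference therefore depended on TCGC and on pooling. Depth was uneven, with a median of 61 calls in Dnmt1+/+ and 63 in Dnmt1-/- at the other CpGs of the array and a maximum of 5078 and 6190. How reads that match several copies were treated is not given in the sources used here, and whether reads of copies missing from the assembly were placed on these kilobases was not tested. The levels are those of the satellite reads placed on this array.

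The same CpG of the unit recurs along the array, so that its copies could be lined up by the 6 bases on either side. The grouping was made after the values had been seen. There were 7 such sites with 12 or more copies, and they covered 202 of the 238 CpGs. They are written with the CpG in capitals.
Site 1, 55 copies: tttcctCGccatat
Site 2, 43 copies: attttcCGtgattt
Site 3, 29 copies: ttttcaCGtttttc
Site 4, 28 copies: atttcaCGtcctaa
Site 5, 19 copies: tgatttCGtcattt
Site 6, 16 copies: ttttctCGccatat
Site 7, 12 copies: tcaagtCGtcaagt

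**Figure D3:**
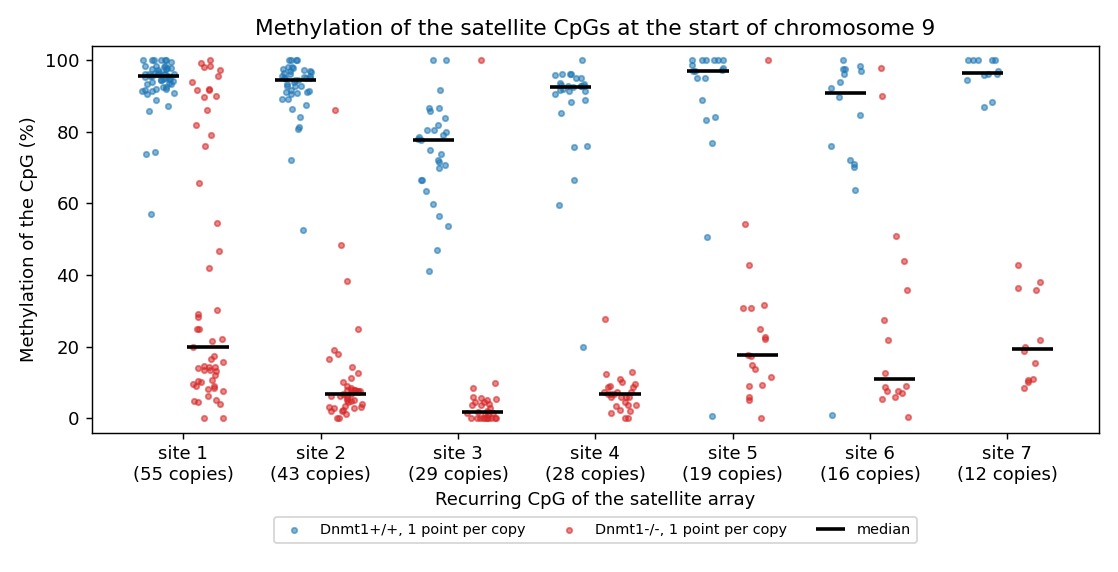
Methylation (y axis, percent) of every measured copy of 7 recurring CpG sequences (x axis) of the satellite array of chromosome 9. Blue points are the Dnmt1+/+ library, red points the Dnmt1-/- library, and black bars are medians over copies. Sites 2, 3 and 4 have Dnmt1-/- medians under 7%, while 17 of the 55 copies of site 1 are at 60% or more.

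The level varied between these sites, and for some of them with whether copies were averaged or calls pooled. Over copies, site 3 had the lowest Dnmt1+/+ mean, 74.5%, and the lowest Dnmt1-/- mean, 5.95%, with a pooled Dnmt1-/- level of 1.47% (1.28 to 1.68%) over 13881 calls. Site 2 averaged 92.2% and 10.8%, and site 4 averaged 87.0% and 7.09%. The sites that read TCGT averaged 87.5% and 24.5% (site 5) and 96.2% and 22.5% (site 7). With calls pooled, Dnmt1+/+ stood at 69.9% at site 6, 70.3% at site 5 and 73.9% at site 3. A single copy of site 5 was at 0.585% over 1879 Dnmt1+/+ calls and a single copy of site 6 at 0.909% over 330, and without them the pooled levels were 92.9% (site 5) and 87.5% (site 6), above site 3. Pooled Dnmt1-/- calls stood at 10.1% at site 2, 7.52% at site 4, 7.80% at site 5 (10.6% without that copy) and 12.5% at site 7. Intervals on pooled calls take calls as independent, although CpGs of a copy share reads.

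Site 1 had the highest Dnmt1-/- mean and upper quartile of the 7 sites. Its copies averaged 93.8% in Dnmt1+/+ and 38.9% in Dnmt1-/-, with a Dnmt1-/- median of 20% and quartiles of 10.3 and 80.5%. By median it was close to site 7 (19.4%, upper quartile 35.9%) and site 5 (17.8%, upper quartile 30.8%). Copies of site 1 ran from 0 to 100% in Dnmt1-/-, and 17 of 55 were at 60% or more. Site 6, which also reads TCGC, had a Dnmt1-/- mean of 27.03% and a median of 10.9%, with 2 of 16 copies at 60% or more. TCGC is 1 base away from the TaqI site TCGA. Over the whole array 31 CpGs were at 60% or more in Dnmt1-/-, of which 22 read TCGC and 3 read TCGA, among 77 and 6 measured. The remaining 6 were spread over 155 CpGs. The 77 TCGC CpGs of the array had a Dnmt1-/- mean of 37.3%, a median of 19.2% and a pooled level of 30.2%. Elsewhere next to the centromeres, the 311 TCGC CpGs at 80% or more in Dnmt1+/+ had a mean of 27.4%, a median of 19.4% and a pooled level of 27.5%. The 5558 CpGs there with the same Dnmt1+/+ limit that do not read TCGC had a mean of 29.8%, a median of 23.2% and a pooled level of 29.2%, so that TCGC CpGs did not stand higher than others outside the array. Whether reads that begin at a TaqI site of another copy were placed on site 1 was not tested.

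The sequences of these sites were also measured at 10 CpGs beyond 5 Mb on the autosomes, which averaged 87.5% in Dnmt1+/+ and 12.7% in Dnmt1-/-, and each was called lower.

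In the array, 10 predicted genes, including Gm10722, Gm11168 and Gm11167, are annotated as protein coding in GENCODE vM1 and had enough CpGs to be described. Their promoters lay between 82.5 and 95.5% in Dnmt1+/+ and between 16.1 and 31.7% in Dnmt1-/-. As they lie inside the repeat, their values are those of the satellite.

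Outside satellite, the deepest 1 kb tile next to the centromeres was at chr11:3093001-3094000, over the start of Sfi1, which encodes a centrin-binding protein, with parts of Drg1 and Gm12735. Its 22 other CpGs had a median depth of 1920 calls in Dnmt1+/+ and 3000 in Dnmt1-/-, and averaged 84.8% and 23.4%. The median depth of other CpGs next to the centromeres was 32 and 33 calls, and whether reads of several copies were placed on this tile was not tested. This tile and the satellite array are 1.52% of the other CpGs next to the centromeres but carried 12.6% of their Dnmt1+/+ calls and 14.96% of their Dnmt1-/- calls.

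Among 1 kb tiles with at least 5 other CpGs, 403 of 824 next to the centromeres were lower by 25 points or more in Dnmt1-/-, 48.9%, and 2 were higher, 0.243%. On the rest of the autosomes the shares were 48.01% and 0.340% of 43561 tiles. There were 324 tiles that reached 80% in Dnmt1+/+. In Dnmt1-/-, 53 of them (16.4%) were under 10% and 32 (9.88%) at 60% or more, against 12.4% and 14.1% elsewhere. Their median in Dnmt1-/- was 28.0% (quartiles 14.9 and 47.2%), against 33.0% elsewhere (17.8 and 50.9%).

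**Figure D4:**
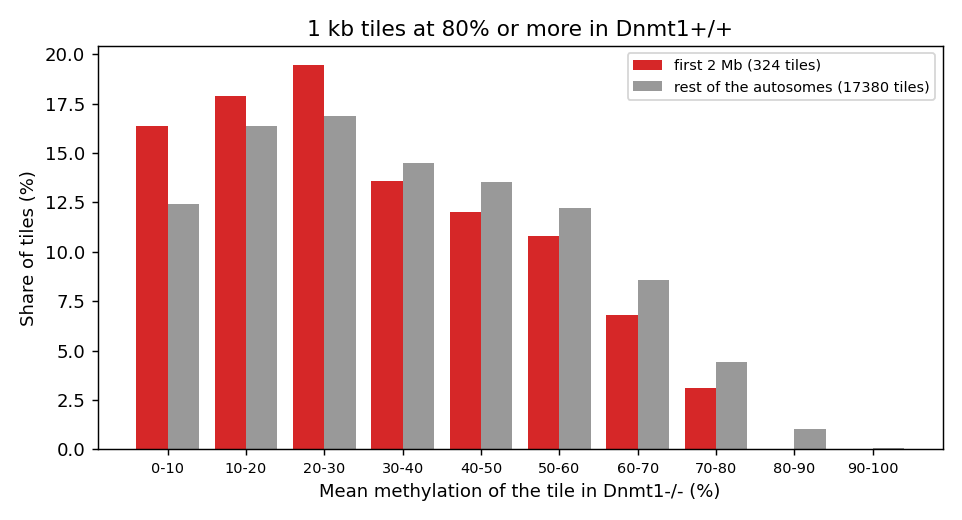
Distribution of the mean Dnmt1-/- methylation (x axis, percent, in steps of 10) of 1 kb tiles that were at 80% or more in Dnmt1+/+; bars give the share of tiles (y axis, percent), red for the 324 tiles in the first 2 Mb and grey for the 17380 tiles of the rest of the autosomes. The red bars are higher than the grey in the 3 lowest steps, and the highest near-centromere tile is at 78.7%.

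The tiles that kept most methylation lay in genes. The highest was the Atad2b tile shown above (89.7% and 78.7%, 5 other CpGs). An exon of Zfp865, a zinc finger gene, followed with 93.4% and 78.4% over 27 CpGs (chr7:4983001-4984000). Then came an exon of Arhgef18 (95.5% and 77.5%, 12 CpGs, chr8:3452001-3453000), an exon of Hspbp1, an Hsp70-binding protein (97.3% and 75.4%, 7 CpGs, chr7:4629001-4630000), and the body of Cpt1a, which encodes the enzyme that brings long-chain fatty acids into mitochondria (98.3% and 75.1%, 8 CpGs, chr19:3369001-3370000). All of them were over 2 kb from the nearest coding gene start. Several of their CpGs were called lower all the same, 8 of 27 in Zfp865 and 7 of 8 in Cpt1a.

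The tiles that kept least were outside genes in 4 of 5 cases. Besides the Gm7353 start (89.5% and 0%, 5 CpGs), these were chr9:4229001-4230000 (96.0% and 0%), chr1:3924001-3925000 (82.2% and 0.488%), chr3:3070001-3071000 (85.8% and 0.805%) and chr8:3764001-3765000 (90.4% and 1.05%). The nearest coding starts were those of Aasdhppt (79.99 kb), Xkr4 (262.9 kb), Hnf4g (437.5 kb) and Cd209a (15.5 kb). Each of their 5 to 7 CpGs was called lower. Depth was low in these tiles, with median depths of 10 to 26 calls in Dnmt1+/+ and 12 to 26 in Dnmt1-/-, and over all their calls the upper bounds of the Dnmt1-/- intervals lay between 2.20 and 6.02%.

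Of 470 protein-coding genes that start below 5 Mb, 278 had 5 or more other CpGs in the 2 kb centred on the start, 45 had 1 to 4 and 147 had none. Genes that start close together can share these CpGs, as Pfn4 and A830093I24Rik do, and each gene was counted. In 229 of the 278 the promoter was at 20% or less in both libraries, and the median promoter was at 3.33% in Dnmt1+/+ and 1.14% in Dnmt1-/-. A total of 59 were lower by 10 points or more in Dnmt1-/-, 10 of them inside the satellite array, and 1 was higher. These were 21.2% and 0.360% of the 278, and 18.3% were lower outside the array, beside 14.5% lower and 0.631% higher among 12209 promoters on the rest of the autosomes. Of the 24 promoters at 80% or more in Dnmt1+/+, the Dnmt1-/- levels ran from 0 to 56.9% with a median of 22.3%.

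**Figure D5:**
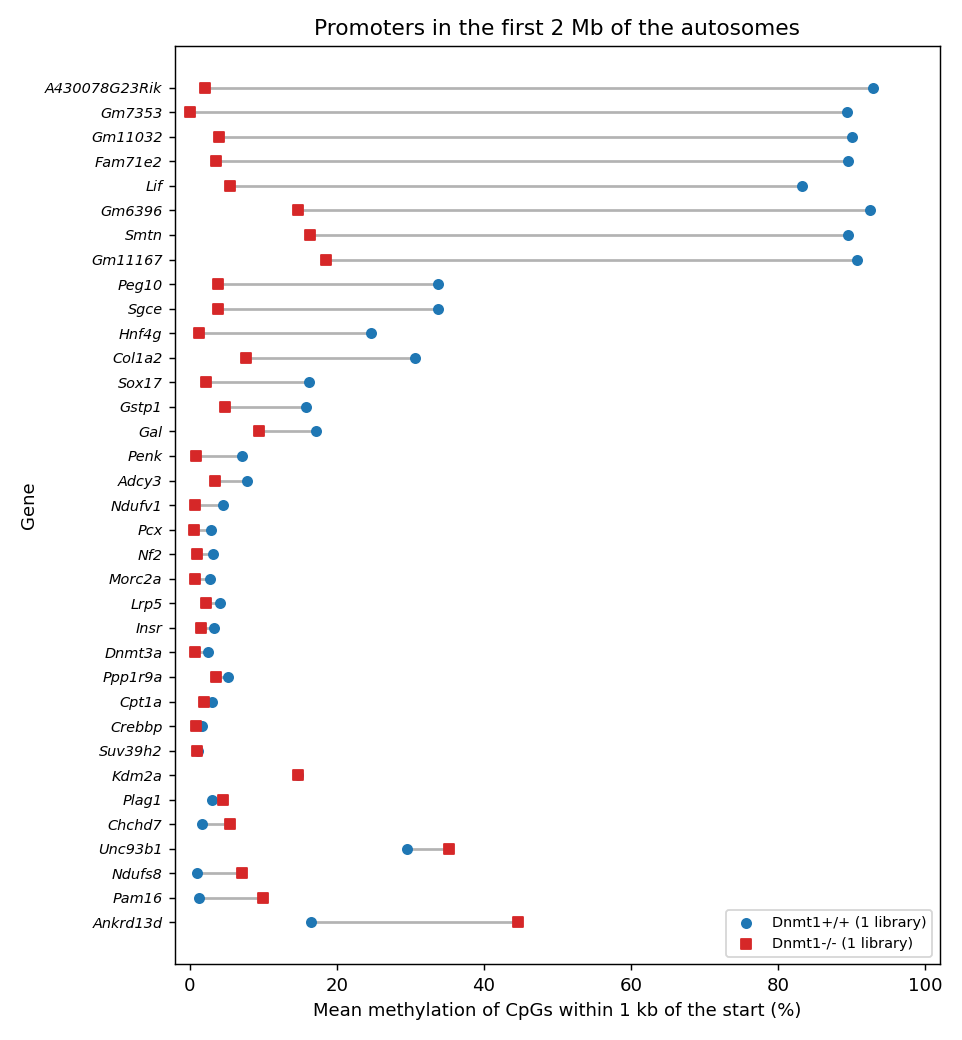
Mean methylation (x axis, percent) of other CpGs within 1 kb of the start of named genes (y axis), ordered by the difference between libraries; circles are Dnmt1+/+ and squares Dnmt1-/-. The top 8 genes lie between 83.2 and 92.9% in Dnmt1+/+ and at 18.5% or less in Dnmt1-/-, and Ankrd13d, at the bottom, is at 16.5% and 44.7%.

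The promoters with the largest falls included those of several predicted or little studied genes. A430078G23Rik stood at 92.9% and 2.05% (5 CpGs), Gm7353 at 89.5% and 0% (5 CpGs), Gm11032 at 90.1% and 4.02% (6 CpGs), Fam71e2 at 89.6% and 3.53% (7 CpGs) and Gm6396 at 92.6% and 14.7% (6 CpGs). Each of these CpGs was called lower. Gm11167, in the satellite array, stood at 90.8% and 18.5%. Among well known genes, Lif, which encodes the cytokine leukaemia inhibitory factor, stood at 83.2% in Dnmt1+/+ and 5.40% in Dnmt1-/-, with 6 of 6 CpGs called lower (Wilson intervals of the pooled calls 74.9 to 89.6% and 2.74 to 11.1%). Of the 6, 1 lay within 500 bp of the start. Smtn, which encodes the smooth muscle protein smoothelin, stood at 89.6% and 16.4%, or 79.3% and 21.2% with calls pooled.

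Other methylated promoters were picked out after their values were seen. Tnni3, which encodes cardiac troponin I, stood at 92.9% and 24.7% with 10 of 10 CpGs called lower. Hormad2, which encodes a meiotic chromosome protein, stood at 83.99% and 23.3% with 16 of 17 called lower. Gstp2, a glutathione S-transferase gene, stood at 97.5% and 33.3%.

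In the gene set, 25 of 26 listed genes started in the interval and 23 had enough CpGs. Epc1 did not start in it, Osm had 0 measured CpGs and Pomc had 2. Of the 23, 7 were lower by 10 points or more, 0 were higher and 16 moved by less than 10 points, so that 30.4% were lower beside 21.2% of all 278 promoters. With calls pooled 6 of the 7 were lower by 10 points. The median over the 23 was 5.14% in Dnmt1+/+ and 2.14% in Dnmt1-/-. Since Peg10 and Sgce share their CpGs, the 7 are 6 distinct promoters of 22. The genes were listed with results of these data known.

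Of the 5 measured chromatin regulators 0 differed by 10 points, like 78.4% of all 278 promoters. Dnmt3a, a de novo methyltransferase, was at 2.41% and 0.705% over 60 CpGs around its first start. A tile at a later transcript start inside the gene, described below, was at 12.9% and 49.4%. Suv39h2, a histone H3K9 methyltransferase that acts at pericentric heterochromatin, was at 1.11% and 0.956%. Morc2a, an ATPase of heterochromatin silencing, was at 2.71% and 0.672%, and Crebbp, a histone acetyltransferase, at 1.67% and 0.889%. Kdm2a, a CpG-island-binding H3K36 demethylase, was the highest, at 14.7% in both, or 24.04% and 26.03% with calls pooled and 27.1% and 27.5% within 500 bp of the start, with 3 of its 74 CpGs called lower and 3 called higher.

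Developmental and secreted genes had 4 of 7 measured promoters lower by 10 points, against 21.2% of all 278 promoters next to the centromeres, in a list chosen with such values known. Besides Lif these were Hnf4g, a nuclear receptor (24.6% and 1.28%), Col1a2, a chain of type I collagen that fibroblasts secrete (30.6% and 7.60%), and Sox17, an endoderm transcription factor (16.2% and 2.15%). In Sox17, 1 of 13 CpGs was called lower, and the difference was -9.96 points when restriction sites were included. The Col1a2 value joins unlike CpGs: the 3 within 500 bp of the start averaged 83.3% and 11.6%, each called lower. Gal, the galanin precursor, stood at 17.2% and 9.41%, Penk, the proenkephalin gene, at 7.04% and 0.837%, and Plag1, a zinc finger transcription factor, at 3.06% and 4.54% (3.34% and 2.46% with calls pooled). Within 500 bp of its start Plag1 stood at 0.752% and 8.32% over 19 CpGs.

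Peg10 and Sgce, imprinted genes expressed from the paternal allele, start close together in opposite directions and share the same 11 CpGs. These averaged 33.8% in Dnmt1+/+ and 3.87% in Dnmt1-/-, and 7 of 11 were called lower (pooled intervals 30.1 to 38.9% and 1.32 to 3.68%). Ppp1r9a, in the same imprinted cluster, was at 5.14% and 3.50%. Among metabolic and signalling genes 1 of 8 was lower by 10 points (12.5%, beside 21.2% of all 278). This was Gstp1, another glutathione S-transferase gene, at 15.8% and 4.73%. With calls pooled Gstp1 stood at 8.70% and 2.54%, a difference under 10 points, and 2 of its 12 CpGs were called lower. Pcx, listed under its synonym Pc, encodes pyruvate carboxylase and stood at 2.88% and 0.603%, with 2 of 46 CpGs called lower. The promoters of Cpt1a, Lrp5, Insr, Ndufv1, Adcy3 and Nf2 lay between 3.003 and 7.77% in Dnmt1+/+ and between 0.744 and 3.44% in Dnmt1-/-. In Cpt1a the promoter was thus nearly free of methylation in both libraries, while a tile of its body was among the 5 that kept most.

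The 66 other CpGs called higher in Dnmt1-/- lay in 21 tiles of 1 kb. Of these CpGs 62 were in promoters, and 41 fell in the 5 tiles with the largest rises. The share of promoter CpGs called higher was 0.694%, beside 0.717% on the rest of the autosomes. Outside promoters 4 of 7803 were called higher, 0.0513%, beside 0.551% on the rest of the autosomes and 1.47% in the last 2 Mb. The tile with the largest difference, chr12:3891001-3892000, lies inside Dnmt3a within 1 kb of an annotated transcript start, downstream of the gene's first start. Over its 7 other CpGs the mean was 12.9% in Dnmt1+/+ and 49.4% in Dnmt1-/-, and 5 of them were called higher. Its depth was modest, with medians of 25 and 13 calls, and the pooled intervals were 9.94 to 20.1% and 40.4 to 59.6%.

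At the start of Ankrd13d, an ankyrin-repeat gene (chr19:4282001-4283000), 9 of 9 CpGs were called higher, with means of 16.5% and 44.7% at median depths of 62 and 82. Smaller differences were found in 1 kb tiles over the start of Pam16, a subunit of the mitochondrial import motor that overlaps Glis2 (1.18% and 9.92%, 6 of 16 called higher), of Gatsl3 (5.56% and 13.4%, 7 of 22), and of Rasl10a, a Ras-like gene next to Gas2l1 (13.7% and 20.4%, 14 of 42, with 1 called lower). Over the full promoters, within 1 kb either side of the start, the difference was 1.29 points at Gatsl3 and 3.12 points at Rasl10a. With calls pooled it was 3.26 points at Gatsl3 and 8.79 points at Rasl10a (12.8% and 21.6%). By the mean over promoter CpGs, the largest differences after Ankrd13d and Pam16 were those of Ndufs8, a subunit of respiratory complex I (0.959% and 7.11%), Unc93b1, which carries Toll-like receptors to endosomes (29.5% and 35.3%), and Chchd7 (1.60% and 5.47%), with 2, 2 and 0 CpGs called higher. With calls pooled, Unc93b1 stood at 23.1% and 35.7%, and Chchd7 at 2.27% and 2.44%, nearly without a difference. Pooling also changed the order, since Unc93b1 (12.6 points) and Rasl10a were then above Pam16 (7.97) and Ndufs8 (6.14).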

How the data were processed

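RRBS libraries of 1 Dnmt1+/+ and 1 Dnmt1-/- MEF line were prepared by a sequencing provider. The submitters' processing notes name Bismark and mm9, with no version, and the treatment of reads that match several places is not given in the sources used here. The deposited depth is a count of calls per CpG, and the authors kept CpGs with at least 10 calls in both libraries. The authors' percent is the share of methylated calls. Percent multiplied by depth was whole (within 0.01) at 100% of CpGs, and all positions fell on a CG of NCBIM37.

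CpGs were placed by GENCODE vM1 as promoter (within 1 kb of any annotated start), exon, intron or intergenic. Each CpG was counted once in levels and calls, whereas promoters were counted by gene and can share CpGs. Fisher's exact test (two-sided) was run on every CpG of the table with Benjamini-Hochberg adjustment and a threshold of 0.05. It compares the libraries, not the genotypes. It was checked on simulated calls. Intervals are 95% Wilson intervals on calls. They cover counting error only: the reads carry no molecular identifiers, so PCR copies of a molecule cannot be told from separate molecules. The libraries held 74636195 and 78401157 calls. At the median depths of 29 and 31 next to the centromeres, a CpG with 0 methylated calls may still be methylated at up to 10.3% and 9.68% (a floor of 3 calls). At a depth of 10 the floor is 30%.

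Named sites followed a rule: among tiles with at least 5 other CpGs, the 5 highest and 5 lowest Dnmt1-/- means among tiles at 80% or more in Dnmt1+/+, the 5 largest rises and the 5 deepest; among promoters with at least 5, the 8 largest falls, the 5 largest rises and the gene set. The members, lists and rules were chosen with earlier results of these data known. The alternatives were other depth and distance limits, pooled calls, all CpGs, promoters left out, deep or satellite-like tiles left out, and a rest of the autosomes weighted to the same mix of annotation class and CpG density. Coordinates are 1-based. Fisher's test ran in numba 0.67.0 under python 3.11.15, tables were handled with pandas 2.3.3 and numpy 2.4.6, intervals came from scipy 1.17.1, sequence was read with pysam 0.24.0, and plots were drawn with matplotlib 3.10.9.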

Additional observations from a re-analysis of the deposited data

How the results depend on the processing

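No paired analysis was possible because there was 1 library per genotype. For the same reason none could be left out. The level next to the centromeres depends on which CpGs are counted. In Dnmt1+/+ and Dnmt1-/- it was 59.5 and 31.6% over all measured CpGs, 35.5 and 11.6% with at least 20 calls in both libraries, 38.6 and 11.7% with calls pooled, 46.1 and 12.9% below 4 Mb, 45.1 and 14.1% below 10 Mb, 75.8 and 22.4% outside promoters, 44.0 and 13.6% without CpGs above the 99th percentile of depth, and 42.9 and 13.3% without the satellite. The Dnmt1+/+ difference from the rest of the autosomes, -1.47 points, changed sign with calls pooled (6.93), below 4 Mb (1.18), below 10 Mb (0.164), outside promoters (0.768) and against a rest weighted to the same mix (0.869), and was -2.26 over all CpGs, -0.598 with 20 calls, -1.86 without the deepest CpGs and -2.09 without the satellite. The Dnmt1-/- difference, -1.76 points, changed sign only with calls pooled (0.217). It was -2.27 over all CpGs, -1.19 with 20 calls, -2.28 below 4 Mb, -1.12 below 10 Mb, -2.16 outside promoters, -1.85 without the deepest CpGs, -1.87 without the satellite and -0.951 against the weighted rest. Pooling without the satellite and the Sfi1 tile, added after the data were seen, gave 31.7 and 10.7% next to the centromeres and differences of 0.0246 and -0.800 points.

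The number of autosomes with a lower Dnmt1+/+ mean at the centromeric end was 11, a majority that was lost with calls pooled (7), below 4 Mb (8), below 10 Mb (8), outside promoters (8) and against the weighted rest (9). In Dnmt1-/- it was 15, and 12 to 15 under the alternatives. CpGs called lower numbered 12449, and 7286 without CCGG and TCGA, 7821 with 20 calls and 6286 below 4 Mb. CpGs called higher numbered 95, and 45 at an adjusted p under 0.01, 31 with a difference of 25 points and 25 below 4 Mb. Within 500 bp of the start, 2 promoters were higher by 10 points, and 2 with calls pooled, an alternative added after the data were seen. With at least 10 other CpGs, 74 tiles were lower and 0 higher by 25 points, and by 50 points 268 were lower and 0 higher. The satellite mean in Dnmt1-/- (21.2%) was 13.2% without TCGC, 15.3% with calls pooled and 22.2% with TCGA, alternatives added after the data were seen. The Col1a2 difference, -23.0 points, was -71.7 within 500 bp and -13.3 over all CpGs. The small promoter differences changed sign for Suv39h2 over all CpGs (0.0909 points), for Kdm2a within 500 bp (0.322) and over all CpGs (0.0348), and for Nf2 within 500 bp (0.462), and with calls pooled for Kdm2a (1.99) and Plag1 (-0.881). The causes were not tested.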
